A study of Mus musculus with 4 samples.

Results

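The 7 non-classical MHC class I genes H2-T23, H2-T22, H2-T24, H2-Q4, H2-Q6, H2-Q7 and H2-M3 were taken by symbol from the 32285 genes of the deposited count tables, and all 7 were present. Spatial gene expression had been measured in 4 fresh frozen sections of MC38 tumors on 10x Genomics Visium slides, in which each barcoded spot captures the RNA of the small region of tissue above it, so that 1 spot can hold several cells. MC38 is a colon carcinoma line of C57BL/6 origin, of which 500000 cells had been injected subcutaneously into F1 females, 8 to 12 weeks old. Both groups had a C57BL/6J parent. The other parent was CC075/UncJ for the 2 hosts called CC075F1 here and CC080/TauUncJ for the 2 called CC080F1, both from the Collaborative Cross, a panel of recombinant inbred mouse strains descended from several founders. All mice had received 200 µg of isotype control antibody (2A3) once, when the tumors measured 75 to 110 mm3, and the tumors were collected 48 hours later, so no anti-PD-1 treated tumor was analysed here.

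Non-classical class I molecules share the fold of the classical molecules H2-K and H2-D, which pair with beta-2-microglobulin and show peptides to CD8 T cells, but they vary less between individuals and mostly serve specialised receptors. Qa-1, the product of H2-T23, carries a peptide cut from the leader of classical class I molecules and is the ligand of the inhibitory receptor CD94/NKG2A on NK and CD8 T cells. H2-Q6 and H2-Q7 belong to the Qa-2 family, H2-T22 is seen by a subset of gamma delta T cells, and H2-M3 presents N-formylated peptides of bacterial or mitochondrial origin. Interferons induce many class I genes through short response elements in their promoters.

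All 7 genes lie in the MHC on chromosome 17 (positions from GENCODE vM21 on GRCm38). H2-Q4 was annotated at chr17:35379617-35385290, H2-Q6 at chr17:35424850-35430055, H2-Q7 at chr17:35439155-35443773 and H2-M3 at chr17:37270220-37274484, all on the plus strand. H2-T24 was annotated at chr17:36005695-36020560, H2-T23 at chr17:36029773-36032855 and H2-T22 at chr17:36037128-36042747, all on the minus strand. The reads had been aligned to the C57BL/6J reference. The tumor cells carry that MHC and so does 1 parent of each host, whereas the labels do not give the MHC haplotype that the CC075 or CC080 parent contributed. Reads from another haplotype can align less well where its sequence differs from the reference. For every strain difference below, a difference in RNA and a difference in alignment therefore cannot be told apart.

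The promoters of the members are shown because the interferon comparison further on turns on these genes and the family holds 2 kinds of promoter run. Of the 7 genes, 6 had an entry in the RefSeq promoter table (GRCm38.p6, 250 bases before to 50 after the start, both strands searched), and H2-T24 had none. Each stretch is written 5′ to 3′ on the strand of the gene, with the motif found in it in capitals. For H2-T23 only 30 bases are printed, since GENCODE vM21 places the start of the gene further upstream, so that the stretch lies inside that gene model.
H2-T23: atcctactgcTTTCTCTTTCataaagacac
H2-T22: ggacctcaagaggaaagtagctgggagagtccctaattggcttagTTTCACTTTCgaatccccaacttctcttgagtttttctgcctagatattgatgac
H2-Q4: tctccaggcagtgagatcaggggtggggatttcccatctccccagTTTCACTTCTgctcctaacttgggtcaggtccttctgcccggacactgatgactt
H2-Q6: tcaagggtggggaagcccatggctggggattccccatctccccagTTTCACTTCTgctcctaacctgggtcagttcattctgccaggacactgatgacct
H2-Q7: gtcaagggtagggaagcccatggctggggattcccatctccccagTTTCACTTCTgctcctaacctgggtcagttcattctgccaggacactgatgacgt
H2-M3: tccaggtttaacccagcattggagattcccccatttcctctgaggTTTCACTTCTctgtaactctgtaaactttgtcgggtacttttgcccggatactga

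These stretches lie at chr17:36032806-36032835 for H2-T23 and chr17:36042879-36042978 for H2-T22 on the minus strand, and at chr17:35379419-35379518 for H2-Q4, chr17:35424653-35424752 for H2-Q6, chr17:35438997-35439096 for H2-Q7 and chr17:37270088-37270187 for H2-M3 on the plus strand. The capitals of H2-T23 and H2-T22 are the core of the interferon-stimulated response element read on the opposite strand (GAAA, any 2 bases, GAAA), which 3.44% of all 32851 promoters held. It started 124 bases before the start of H2-T23 and 191 bases before that of H2-T22, and was in none of the other 4 member promoters, nor in those of the classical genes H2-K1 and H2-D1. Among the presentation genes searched, B2m held it before the start and Psme1 9 bases after the start. Tap1, Psmb8, Psmb9, Psmb10, Tapbp and Psme2 did not hold it, and Nlrc5 and Tap2 had no entry. The promoters of H2-Q4, H2-Q6, H2-Q7 and H2-M3 held the 10-base run in capitals instead, as did H2-K1 and H2-D1, against 0.155% (51) of all promoters. That run begins like the H2-T22 run and does not hold the core. The enhancer A core (GGGGA, any base, TCCC) was in H2-Q6, H2-Q7, H2-K1 and H2-D1 (0.323% of all promoters), and the gamma-activated site core TTCNNNGAA was, among the members, in H2-M3 alone (8.30% of all promoters). The core was searched as exact letters, so a promoter without a match can still hold a variant of the element. Whether the 10-base run acts as an interferon response element was not tested. A match describes the letters in this window and not binding.

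The CC075F1 sections held 2709 and 3276 spots with UMIs, against 2787 and 3174 for CC080F1 (UMIs, unique molecular identifiers, count captured RNA molecules). Section totals ran from 82594649 to 146460975 UMIs and spot medians from 31158 to 41740. CPM below means the UMIs of a gene scaled to 1000000 UMIs of the section or class of spots, and a count of 3 UMIs, the limit that a count of 0 allows, is 0.0205 to 0.0363 CPM. Colon epithelial markers were near absent from these carcinoma sections: their 8 genes summed to 0.888 to 2.83 CPM. In CC075F1 replicate 2 alone, 20 spots had more than 1% of their UMIs from skin, muscle and fat genes. The summed T and NK cell markers were at 84.0 and 81.3 CPM for CC075F1 against 23.3 and 32.1 for CC080F1, and the macrophage markers at 4752 and 4179 against 2901 and 3406 CPM. In such sections fewer cells of a type and less RNA per cell cannot be told apart.

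**Figure D1:**
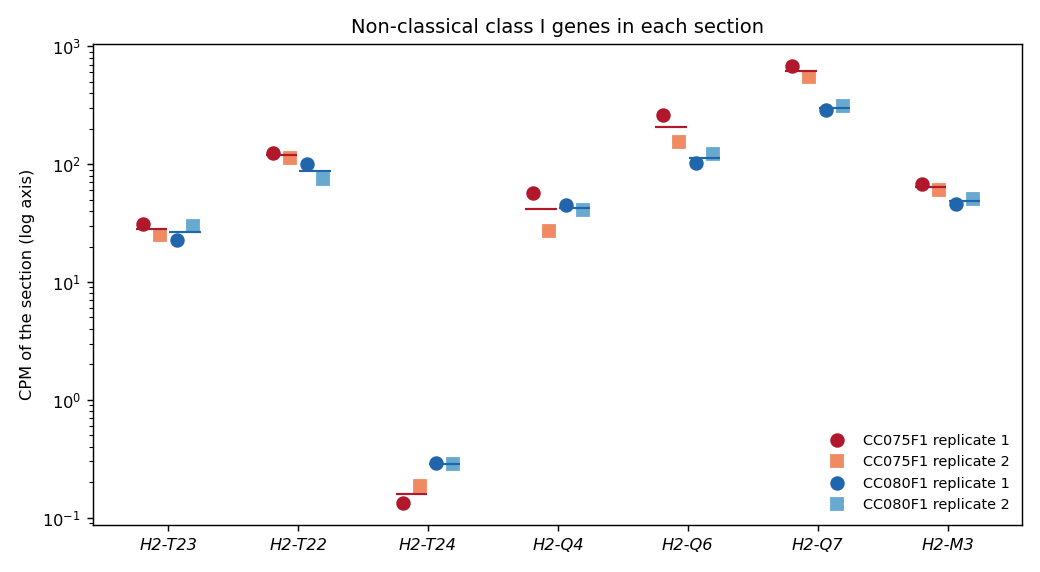
CPM (log axis) of each gene in each of the 4 sections; lines are the means of the 2 sections of a strain. The points of H2-Q6, H2-Q7, H2-T22 and H2-M3 lie higher in both CC075F1 sections than in both CC080F1 sections, those of H2-T23 and H2-Q4 overlap, and H2-T24 stays under 0.3 CPM.

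The strain comparison asked whether the tumors of the hosts differed in these genes without anti-PD-1. The Qa-2 genes differed most. H2-Q7 was at 683 and 545 CPM in CC075F1 replicates 1 and 2, against 287 and 309 CPM in those of CC080F1, which is 614 ± 97.7 against 298 ± 15.3 (SD, n = 2 each). H2-Q6 was at 262 and 153 against 103 and 122 CPM, or 208 ± 76.9 against 112 ± 13.5. For both genes every CC075F1 section lay above every CC080F1 section, although H2-Q6 in CC075F1 replicate 2 was closer to the CC080F1 sections than to its own partner. The H2-Q7 UMIs were 2.61 and 3.56 times those of H2-Q6 for CC075F1, against 2.79 and 2.53 times for CC080F1.

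H2-T22 was at 125.5 and 111.9 against 100.5 and 75.5 CPM, CC075F1 first (119 ± 9.60 against 88.0 ± 17.7). H2-M3 was at 67.8 and 59.8 against 46.0 and 50.7 CPM (63.8 ± 5.67 against 48.3 ± 3.37). Neither gene overlapped between the strains, and the lowest CC075F1 section stood above the highest CC080F1 section by less than the gap between the 2 CC080F1 sections for H2-T22 and by more for H2-M3.

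H2-T23 did not separate the strains. It was at 31.3 and 25.2 CPM for CC075F1 against 22.8 and 30.05 CPM for CC080F1 (28.3 ± 4.35 against 26.4 ± 5.14), a ratio of 1.07. H2-Q4 varied most inside a strain, with 56.5 CPM in CC075F1 replicate 1 and 27.0 CPM in replicate 2, against 44.8 and 40.7 CPM in CC080F1, so that the CC080F1 sections sat between the CC075F1 sections. H2-T24 gave only 11 and 27 UMIs for CC075F1 against 27 and 32 for CC080F1, or 0.133, 0.184, 0.289 and 0.284 CPM, never more than 1 UMI in a spot.

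In all, 5 of the 7 members did not overlap between the strains, against 36.9% of the 15572 genes tested, and the 4 that lay higher in CC075F1 (H2-T22, H2-Q6, H2-Q7 and H2-M3) stood against 6.63% of genes. In the edgeR quasi-likelihood test none of the 7 passed an adjusted p of 0.05 (Benjamini-Hochberg over all genes), where 14 genes did (0.0899%), 9 of them (0.0578%) higher in CC075F1. At an unadjusted p under 0.05 there were 4 members, against 5.43% of all genes. H2-Q7 had a log2 fold change of 1.35 (SE 0.29, edgeR adjusted p = 0.337) and H2-Q6 one of 1.14 (SE 0.25, edgeR adjusted p = 0.343). H2-T22 stood at 0.76 (SE 0.23, edgeR adjusted p = 0.640) and H2-M3 at 0.72 (SE 0.21, edgeR adjusted p = 0.589). For H2-T23, H2-Q4 and H2-T24 the values were 0.40 (SE 0.23), 0.21 (SE 0.22) and -0.46 (SE 0.55), with edgeR adjusted p-values of 0.830 to 0.864. The median log2 fold change was 0.72 over the 7 members and -0.02 over all genes tested.

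These log2 fold changes are relative to the trimmed mean of all genes (TMM). Scaling by section totals alone moved the median of all genes to -0.31, and with it H2-Q7 to 1.04, H2-Q6 to 0.88, H2-T22 to 0.43, H2-M3 to 0.40, H2-T23 to 0.10 and H2-T24 to -0.83, while H2-Q4 turned to -0.03. Under that scaling 2 members, H2-Q6 and H2-Q7, had an unadjusted p under 0.05 in edgeR, and H2-T22 and H2-M3 no longer did (unadjusted p = 0.139 and 0.194). H2-Q6 and H2-Q7 did pass with DESeq2 (adjusted p = 7.89e-04 and 1.15e-06, with 204 genes called in all) and without the filter on low counts (edgeR adjusted p = 0.00594 and 0.00924, with 480 genes called). Over their 14 alternatives the adjusted p ran up to 1.00 for both, and 3 of the 14 made each call.

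For H2-T22, H2-Q6, H2-Q7 and H2-M3, shares of spots differed less between the strains than levels did. For H2-T23 the strain ratio was 1.09 for the share and 1.07 for CPM. H2-Q7 had at least 1 UMI in 99.2% and 99.9% of CC075F1 spots against 99.4% and 99.1% of CC080F1 spots, which is at its ceiling. H2-T23 was detected in 58.0% (exact 95% interval 56.1% to 59.9%) and 60.4% (58.7% to 62.1%) of CC075F1 spots, against 50.2% (48.3% to 52.0%) and 58.5% (56.7% to 60.2%) of CC080F1 spots. For H2-M3 the shares were 82.6% and 87.4% against 75.9% and 77.6%, and for H2-T22 93.5% and 95.5% against 92.8% and 85.8%. With each spot thinned to 10000 UMIs, H2-Q6 was in 91.3% and 77.5% against 63.5% and 69.4% of spots. H2-T24 was in 0.406% to 1.01% of spots. These intervals cover counting error only, and the exact permutation test of 2 against 2 sections cannot go below p = 0.333.

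Among the 17 genes of classical class I presentation none passed the strain test either, 13 had a positive log2 fold change relative to TMM, and the list median was 0.56. B2m, the shared light chain, was at 3166 and 3187 against 2353 and 2365 CPM (log2 fold change 0.77, edgeR adjusted p = 0.830). H2-K1 was at 2387 and 2036 against 1457 and 1698 CPM and H2-D1 at 1760 and 1463 against 1366 and 1290 CPM. The immunoproteasome gene Psmb9 was at 166.5 and 159.3 against 112.1 and 104.9 CPM, with the largest log2 fold change of the list (0.92, edgeR adjusted p = 0.506). The 4 genes with a negative value were Pdia3 (-0.20), Calr (-0.16), Canx (-0.12) and Erap1 (-0.08), chaperones of the endoplasmic reticulum and a peptide-trimming enzyme. These signs depend on the scaling. In mean CPM, Tap2 (72.3 against 82.7), Tapbp (331 against 390) and Tapbpl (22.2 against 23.4) were also lower in CC075F1, with overlapping sections. Calr was at 710 and 500 against 984 and 687 CPM and Canx at 448 and 294 against 522 and 459 CPM.

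Of 29 other class I-like genes, 21 were in the table, 10 were tested and none passed. H2-M9 was at 0.133 and 0.0273 against 0.631 and 1.13 CPM (log2 fold change -3.34, edgeR adjusted p = 0.315), and it is a gene of few counts. Ulbp1, a ligand of NKG2D, was at 36.3 and 23.1 against 48.5 and 38.4 CPM.

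The receptor list spanned a wide range of levels. Its most abundant gene was Klra4, a receptor gene of the Ly49 family, at 61.8 and 102.5 CPM for CC075F1 against 66.6 and 89.98 CPM for CC080F1, followed by the inhibitory receptor genes Lilrb4a at 28.4 to 56.7 CPM and Pirb at 16.7 to 22.5 CPM. Klrc1, which encodes NKG2A, was at 2.72 and 2.36 against 0.769 and 1.12 CPM (log2 fold change 1.73, SE 0.39, edgeR adjusted p = 0.357). Its partner Klrd1 (CD94) was at 9.02 and 9.75 against 3.12 and 8.33 CPM. Cd8a, whose product binds class I, was at 12.7 and 6.59 against 2.46 and 1.13 CPM (log2 fold change 2.70, edgeR adjusted p = 0.0778). None of the 21 receptor genes tested passed, and 16 had a positive log2 fold change relative to TMM. H2-T23, the ligand gene of NKG2A, overlapped between the strains in these sections and Klrc1 did not, nor did 36.9% of all genes tested. The summed T and NK cell markers were also higher in both CC075F1 sections. A difference between ligand and receptor gene was not tested.

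**Figure D2:**
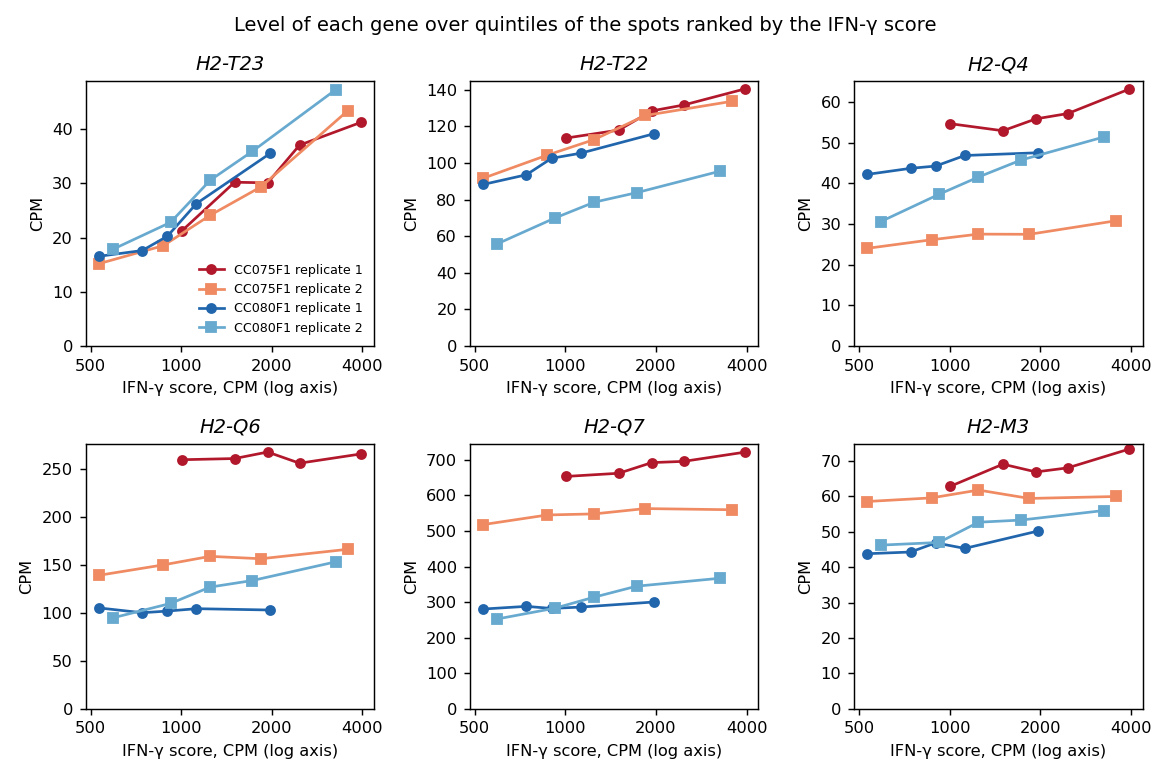
CPM of each gene (linear axis from 0) against the IFN-γ score in CPM (log axis) in quintiles of the spots of each section ranked by that score; each line is a section. H2-T23 climbs in all 4 sections, and at equal score its CC075F1 levels lie somewhat lower (ratio 0.862). The lines of H2-Q6, H2-Q7 and H2-M3 are flatter and lie higher for CC075F1. H2-Q6 of CC080F1 replicate 2 still climbs from 94.7 to 153 CPM, near the line of CC075F1 replicate 2. H2-T22 of CC080F1 replicate 2 runs below the others.

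Next, each member was set against interferon-induced genes across spots. The IFN-γ score of a spot was the summed CPM of 24 genes that this cytokine induces, such as Irf1, Cxcl9 and guanylate-binding proteins, with no member among them. The score was at 2095 and 1522 CPM for CC075F1 against 1022 and 1486 CPM for CC080F1. Spots of the highest quintile of each section were compared with those of the lowest quintile, with the section as a block.

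H2-T23 rose with the score in every section. From the lowest to the highest quintile it went from 21.3 to 41.3 CPM in CC075F1 replicate 1, from 15.2 to 43.4 in CC075F1 replicate 2, from 16.5 to 35.5 in CC080F1 replicate 1 and from 17.8 to 47.2 in CC080F1 replicate 2. These are ratios of 1.94 to 2.86 with a mean of 2.37, and in the 3 sections other than CC075F1 replicate 1 it rose at each step. The test gave a log2 fold change of 1.07 (SE 0.07, edgeR adjusted p = 3.19e-04). H2-T22 rose less, by ratios of 1.24 to 1.71, step by step in all 4 sections (log2 fold change 0.33, SE 0.07, edgeR adjusted p = 0.0201). Its lowest and highest quintiles were at 113.6 and 140.5 CPM in CC075F1 replicate 1, 91.6 and 133.6 in CC075F1 replicate 2, 88.2 and 116.0 in CC080F1 replicate 1, and 55.7 and 95.5 in CC080F1 replicate 2. Without CC080F1 replicate 2 its log2 fold change was 0.23 and it did not pass (edgeR adjusted p = 0.0766).

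The other 4 members tested did not pass. H2-Q7 had ratios of 1.07 to 1.45 and a log2 fold change of 0.05 (SE 0.09, edgeR adjusted p = 0.748), and H2-Q6 ratios of 0.979 to 1.62 and a log2 fold change of 0.06 (SE 0.11, edgeR adjusted p = 0.720). For both genes the largest ratio came from CC080F1 replicate 2, where H2-Q7 went from 252 to 367 CPM and H2-Q6 from 94.7 to 153 CPM. Without that section their log2 fold changes were -0.06 and -0.09. H2-Q4 had ratios of 1.13 to 1.68 and a log2 fold change of 0.20 (SE 0.09, edgeR adjusted p = 0.175). H2-M3 had ratios of 1.02 to 1.21 and a log2 fold change of 0.00 (SE 0.08, edgeR adjusted p = 0.995). The ratios are of CPM, whereas the log2 fold changes are relative to TMM. H2-T24 was too low for the filter. Without the filter it stood at 1.58, with no call (edgeR adjusted p = 0.0967).

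Thus 2 of 6 members were called higher in interferon-high spots, against 11.1% of the 13094 genes tested (1459, with another 1144 lower, or 19.9% in either direction). The same 2 members passed at an unadjusted p under 0.05, as did 34.9% of all genes. The members' median log2 fold change was 0.13 and that of all genes -0.01. Scaling by totals alone moved the median of all genes to 0.16 and the calls to 3376 higher and 415 lower. There H2-T23 stood at 1.25 and H2-T22 at 0.51, and H2-Q4 was also called (0.37, edgeR adjusted p = 0.0323). H2-Q7 (0.22) and H2-M3 (0.18) were not called there, although their unadjusted p was under 0.05 (edgeR, 0.0272 and 0.0166). H2-Q6 (0.24) had an unadjusted edgeR p of 0.0760. Which members passed at an unadjusted p under 0.05 thus depended on the scaling.

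H2-T23 was called under all 13 alternatives, with log2 fold changes of 0.87 to 1.25, and H2-T22 under 12 of 13. In spots with no UMI of Ptprc, the pan-leukocyte gene, H2-T23 stood at 1.05 (SE 0.09, edgeR adjusted p = 1.30e-05) and H2-T22 at 0.35 (SE 0.08, edgeR adjusted p = 0.0101). With quintiles drawn within 10 strata of spot depth they stood at 1.02 and 0.34.

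Cell composition and depth moved with the score too. The median depth of the low spots was 34847 to 54898 UMIs over the 4 sections and that of the high spots 28237 to 34343. The CPM of Ptprc was 1.46 to 2.59 times as high in the high spots. For the summed markers this ratio was 1.21 to 1.85 for macrophages (9 genes), 1.90 to 3.04 for T and NK cells (9 genes), 1.43 to 4.39 for endothelial cells (5 genes) and 0.974 to 2.31 for fibroblasts (6 genes). No defining marker of these lists was at 0 in every section. Ptprc was detected in 63.2% to 68.3% of the spots of a section, and a spot without its UMI can still hold leukocytes. The part of these cell types in the rise of H2-T23 and H2-T22 was not tested.

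Classical class I genes were set beside the members. H2-K1 had a log2 fold change of 0.13, H2-D1 of 0.08 and B2m of 0.03 between high and low spots, and none of the 3 passed (edgeR adjusted p = 0.264, 0.459 and 0.789). In contrast, 12 of the 16 presentation genes tested were called higher, with a list median of 0.31. Tap1, a subunit of the peptide transporter, was the furthest (0.92, edgeR adjusted p = 0.00106), followed by the tapasin relative Tapbpl (0.67) and the immunoproteasome genes Psmb10 (0.55) and Psmb9 (0.54). The log2 fold change of H2-T23 thus lay above that of Tap1, and those of the H2-Q genes and H2-M3 (0.00 to 0.20) lay in the range of H2-K1, H2-D1 and B2m or next to it. The difference between members and classical genes was not tested. Of 8 other class I-like genes tested, 2 were called, the lipid presenter Cd1d1 (0.66) and the Fc receptor Fcgrt (0.30).

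Receptor genes were compared between the same classes of spots. Of 17 tested, 14 were called higher and 1 lower, with Klrk1 (NKG2D) at 1.97, Cd8a at 1.23, Klrd1 at 1.02 and Klrc1 at 0.94 (edgeR adjusted p = 0.00981 for Klrc1). The one lower was Klra4 (-0.33). The ligand gene H2-T23 and both genes of its receptor were thus all higher in sums over interferon-high spots. Whether they shared single spots was not tested, and a spot can hold several cells.

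**Figure D3:**
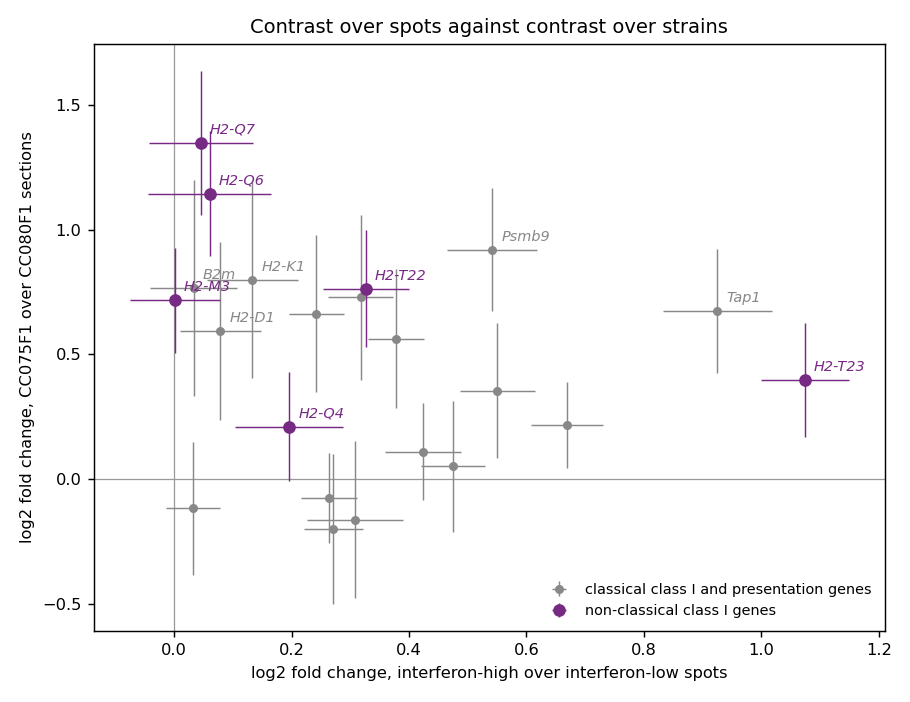
Log2 fold change of interferon-high over interferon-low spots (x axis) against that of CC075F1 over CC080F1 sections (y axis) for the 6 members tested in both and for classical class I and presentation genes; bars are 1 standard error on each axis. H2-T23 lies far to the right at 1.07, H2-Q7 and H2-Q6 lie at the top at 1.35 and 1.14 with x values near 0, and no strain value passed the test.

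Whether the response to the score differed between the strains was tested as an interaction. None of the 6 members passed, against 15 of 13094 genes (0.115%), with 0 members at an unadjusted p under 0.05 in edgeR against 5.72% of genes, and none passed with DESeq2. The differences of log2 fold changes, CC075F1 minus CC080F1, ran from -0.11 (SE 0.15) for H2-T23 to -0.29 (SE 0.15) for H2-Q7, all with edgeR adjusted p-values of 0.921 to 0.961. The means of the section values for H2-T23 were 1.24 in CC075F1 and 1.25 in CC080F1 on the log2 CPM scale.

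Because the score itself was higher in CC075F1, the strains were also compared at equal score, over 10 bins of the score common to all sections. H2-Q7 was at 610 ± 84.9 against 306 ± 15.5 CPM (SD, n = 2 each), for a ratio of 1.99, compared with 2.06 unmatched. H2-Q6 had a ratio of 1.81, H2-M3 of 1.27 and H2-T22 of 1.26. H2-T23 turned to a ratio of 0.862, with 26.7 ± 0.420 against 31.0 ± 1.33 CPM, which did not overlap, and of 0.843 in spots without a Ptprc UMI. In all, 5 of 6 members did not overlap at equal score, against 46.9% of the 15572 genes, and the 4 that lay higher in CC075F1 stood against 6.37%. Each of the 5 had an exact permutation p = 0.333, the smallest possible. The H2-T23 ratio depended on the list: at equal level of 22 type I interferon genes, whose sums were 986 and 953 against 944 and 1184 CPM, it was 1.12 with overlapping sections. H2-Q4 stood at 0.939, with 0.626 without CC075F1 replicate 1 and 1.25 without CC075F1 replicate 2, so that its direction changed with the CC075F1 section left out.

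Correlations across the spots of a section were computed on Pearson residuals of the counts given spot depth, and the points share library and depth, so they are given without a test. The mean over 4 sections of the correlation with the IFN-γ score was 0.266 for H2-T23 (0.198 to 0.353) and 0.182 for H2-T22 (0.133 to 0.238). It was 0.135 for H2-Q7, 0.102 for H2-Q6, 0.0930 for H2-Q4 and 0.0517 for H2-M3. Over 6096 genes of at least 20 CPM the median was 0.0313 and the 90th percentile 0.100, and H2-T23 ranked 79 among them and H2-T22 192. H2-T23 and H2-T22 came first and H2-M3 last here as in the comparison of spots, while H2-Q7 stood above H2-Q4, the reverse of their log2 fold changes there.

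The genes whose spot pattern was most like each member split the family again. For H2-T23 they were Ly6a (mean correlation 0.283), Ly6e (0.270) and the class II gene H2-Ab1 (0.260), and its correlation with H2-K1 was 0.161. H2-T22 followed Gbp2 (0.185), H2-K1 (0.180) and Psmb8 (0.176). H2-Q7 followed H2-K1 (0.394), H2-D1 (0.354) and B2m (0.294), and H2-Q6 followed H2-K1 (0.339), H2-D1 (0.287) and H2-Q7 (0.273). For H2-Q4 the order was H2-K1 (0.156), H2-D1 (0.123) and H2-Q7 (0.122), and for H2-M3 it was H2-K1 (0.113), H2-Q7 (0.105) and H2-D1 (0.0939). Thus H2-K1 came first for the H2-Q genes and H2-M3, second for H2-T22, and was not among the 3 genes most like H2-T23.

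**Figure D4:**
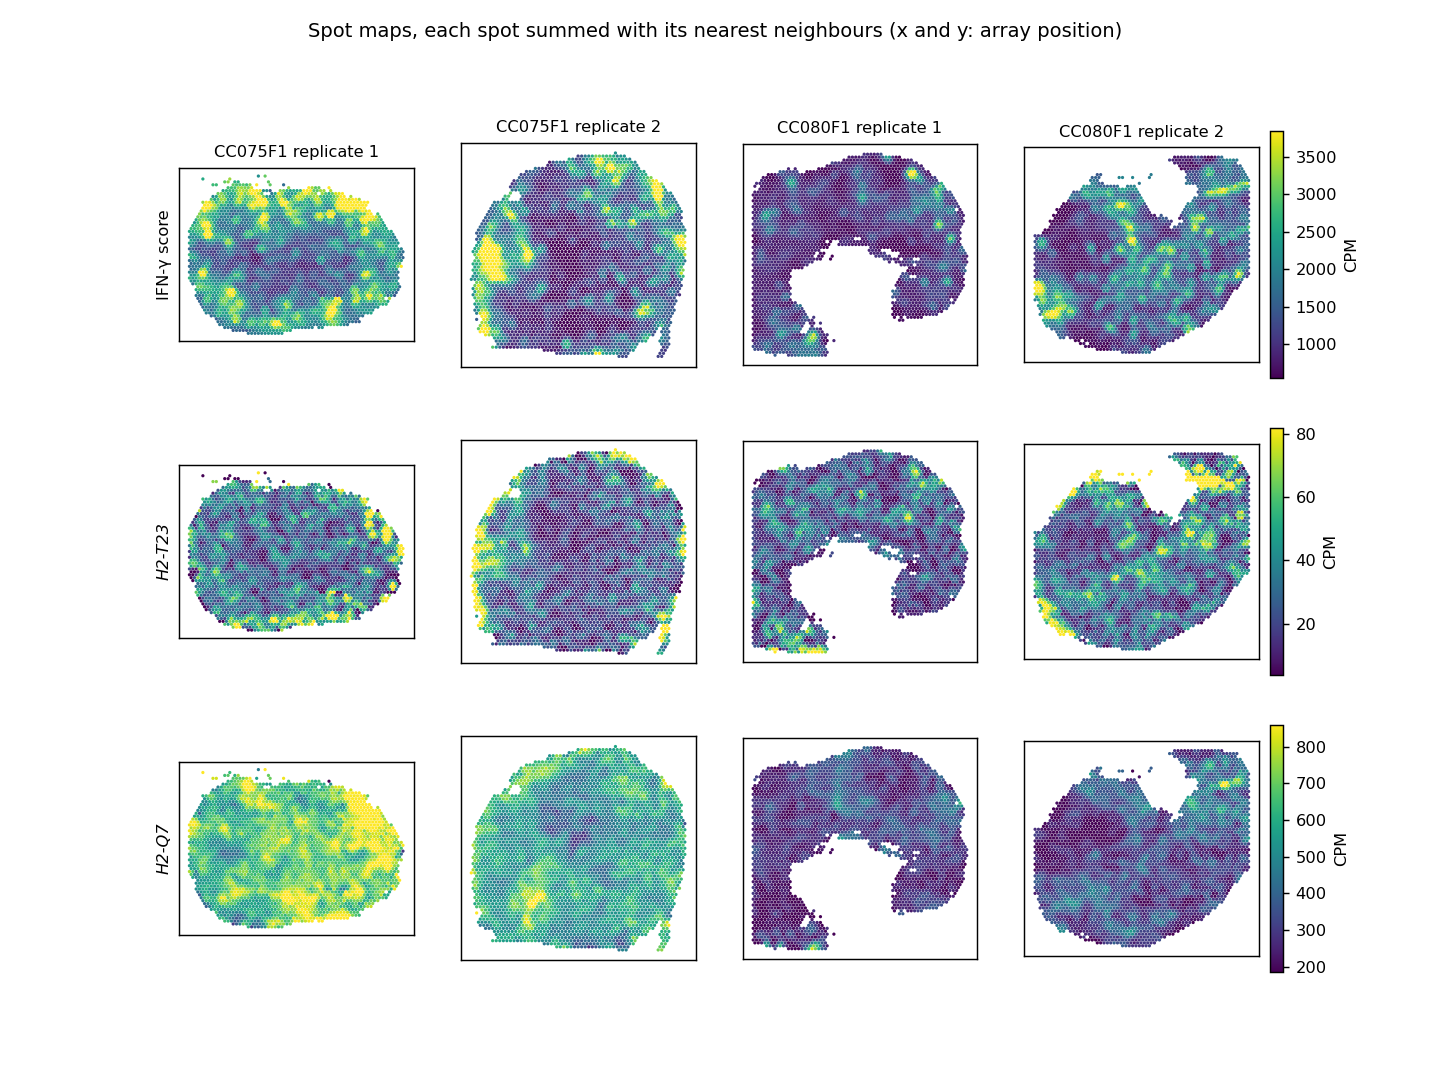
Maps of the 4 sections (columns; x and y are the positions on the Visium array), colored by the CPM of each spot summed with its nearest neighbours, with 1 color scale per row, limited to the central range of all spots. H2-T23 (middle row) is patchy with bright rims in 3 sections, the IFN-γ score (top row) is bright along the rim of the CC075F1 sections, and H2-Q7 (bottom row) is broad and higher throughout in CC075F1.

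In the tissue, H2-T23 was concentrated at the rim in 3 of 4 sections. Its CPM in spots within 3 steps of the tissue edge was 1.51 and 1.87 times that of the interior for CC075F1, against 0.835 and 1.27 times for CC080F1. For the IFN-γ score these ratios were 1.43 and 1.45 against 0.875 and 0.855, so that in CC080F1 replicate 2 H2-T23 was higher at the rim and the score was not. H2-T22 stood at 1.14 and 1.13 against 0.809 and 1.03. H2-Q6 and H2-Q7 stayed between 0.895 and 1.13 in all sections. With interior spots alone, the strain log2 fold change was 1.35 for H2-Q7 and 0.30 for H2-T23.

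Moran's I over the 6 nearest spots, a measure of clustering that also depends on the counts per spot, was 0.247 to 0.348 for H2-Q7 and 0.163 to 0.229 for H2-Q6. For H2-T23 it was 0.0803 and 0.202 against 0.0715 and 0.149, and for H2-T22 0.0714 to 0.119. H2-Q4 and H2-M3 stayed under 0.05. The score had 0.430 to 0.587. The Qa-2 genes were thus spatially patterned in every section without passing the test against the score.

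Sequence shared with other genes limits some of these counts. Reads came from near the 3′ end of transcripts, and exact 90-base windows within the last 500 bases of each gene's coding transcripts were searched in all vM21 transcripts. Of the H2-Q6 windows, 26.9% were shared, 176 of 822 with H2-Q7. Some were shared with the other genes most like it across spots, 41 with H2-D1 and 2 with H2-K1. An effect of this on their correlations was not tested. The shared H2-Q7 windows were with H2-Q5 alone. Of the H2-T22 windows 26.4% were shared, all with H2-T10, which is not in the count table. For H2-T23 the share was 13.4%, for H2-Q4 9.49% and for H2-Q7 4.73%, and none was shared for H2-M3 and H2-T24. Values of H2-Q6 and H2-T22 are therefore uncertain in how reads of the shared windows were counted.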

How the data were processed

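The authors aligned reads with Space Ranger 1.3.1 to GRCm38 (GENCODE vM23 annotation, per the study's methods), and deposited the UMI counts of every gene in each spot under tissue, without normalization. A spot with 0 UMIs was dropped, leaving 2709 of 2710 spots in that section. Seurat 5.0.1, named in the submitters' processing notes, left no values in the files used. From the counts, UMIs were summed per section, or per section and spot class, and tested with edgeR 4.0.16 (quasi-likelihood, TMM, filterByExpr, R 4.3.3) with Benjamini-Hochberg adjustment at 0.05. Strain was the only term of the section fit. The class fit used the highest and lowest quintiles by the 24-gene score, with the section as a block and score genes left out of the test. DESeq2 1.42.0 and limma 3.58.1 were alternatives.

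Groups came from the labels, which number the sections of a strain as biological replicates. Spots were never replicates, so p-values measure the spread of 2 sections a strain. Total counts of 82594649 to 146460975 UMIs a section keep counting error small beside the spread between sections, except for H2-T24. Shares have exact (Clopper-Pearson) 95% intervals. Single values were compared by two-sided exact permutation tests. Residual correlations used an overdispersion parameter of 100. The 1666 barcodes present in all sections are array positions and not shared cells. Positions, transcripts and promoters came from GENCODE vM21 and RefSeq tables; 50 gene identifiers had no vM21 position.

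Tested on simulated data, the section fit called 14.1% of 2-fold and 70.8% of 4-fold changes with 8 false calls among 15369 genes. The class fit called 57.6% of 1.41-fold and 86.7% of 2-fold changes with 17 false calls among 12978 genes.

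The rule for named genes took all members, up to 6 genes with the highest mean CPM from each of the presentation, class I-like and receptor lists where none passed the strain test, and the 3 genes most like each member. Tap1, Tap2, Tapbp, Tapbpl, Psmb9, Psmb10, Psme1, Psme2, Nlrc5, Pdia3, Erap1, H2-M9 and Klrc1 fell outside it and were chosen after their values were seen. The members and lists were chosen with earlier results of these data known.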

Additional observations from a re-analysis of the deposited data

Results flagged for a closer look

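At the tissue edge the strains lay on opposite sides of 1 for the IFN-γ score and for 2 of the members, and the difference between strains was not tested. The ratio of edge to interior CPM of the score was 1.43 and 1.45 for CC075F1 against 0.875 and 0.855 for CC080F1, replicate 1 first. For H2-Q4 the ratios were 1.04 and 1.19 against 0.980 and 0.939, and for H2-M3 they were 1.01 and 1.05 against 0.898 and 0.910. Of all 15572 genes tested, 12.8% had the strains on opposite sides of 1. With the edge drawn at 5 steps instead of 3, the ratios were 1.52 and 1.58 against 0.946 and 0.971 for the score, 1.02 and 1.12 against 0.985 and 0.977 for H2-Q4 and 1.03 and 1.02 against 0.915 and 0.972 for H2-M3.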

How the results depend on the processing

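In the strain comparison 14 genes were called, against 204 with DESeq2, 40 by library size alone, 480 with no filter, 23 in spots without a Ptprc UMI and 11 to 207 with 1 section left out (138 without CC080F1 replicate 1 and 207 without CC080F1 replicate 2). With the replicate number as a block 287 were called. The replicate 1 sections of both strains deviated together (r = 0.424 over 11512 genes), but with 2 pairs the number is no evidence of pairing. No member was called in the main fit, and 2 (H2-Q6 and H2-Q7) were called with DESeq2, with no filter and with the replicate block (edgeR adjusted p = 0.0319 and 0.0332), against 0 with 1 section left out. H2-Q4 turned to -0.034 by library size alone and to -0.080 without CC075F1 replicate 1 (range to 0.46).

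Between interferon-high and interferon-low spots 2603 genes were called, against 1088 with the type I interferon list and 551 to 2660 with 1 section left out (551 without CC080F1 replicate 2, 1359 without CC075F1 replicate 1). Members called went from 2 to 1 without CC080F1 replicate 2, with a leave-one-out range of 1 to 2. The leave-one-out ranges that changed sign were -0.093 to 0.11 for H2-Q6, -0.063 to 0.14 for H2-Q7 and -0.043 to 0.11 for H2-M3. H2-M3 also turned to -0.018 with DESeq2 and within depth strata, to -0.021 without Cxcl9 and Cxcl10, to -0.0057 with no filter and to -0.015 with tertiles. H2-T24 was tested with 2 of these alternatives only.

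For the strain difference of that contrast 15 genes were called, against 56 with DESeq2, 0 by library size alone (636 at an unadjusted p under 0.05), 60 with no filter, 26 within depth strata, 4 with tertiles, 2 with the type I list and 2 without Cxcl9 and Cxcl10, and 0 to 443 with 1 section left out (443 without CC075F1 replicate 1, 201 without CC075F1 replicate 2, 0 without CC080F1 replicate 1 and 3 without CC080F1 replicate 2). Leave-one-out ranges that changed sign were -0.29 to 0.055 for H2-T23, -0.61 to 0.046 for H2-Q6 and -0.40 to 0.0033 for H2-M3. At equal score, the H2-T23 ratio moved from 0.862 to 1.12 with the type I list. The cause of these changes was not tested. No alternative called a member there. Having 2 sections a strain and no host haplotype limits every strain value.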
